A study of Mus musculus with 6 samples.

Results

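The subject here is miR-139, both arms of a single hairpin, in mouse C2C12 myoblasts. The members were the rows of the 6 per-library tables whose names start with mmu-miR-139-, which gave 2 of the 49 mature miRNAs listed. C2C12 is an established line of mouse muscle precursor cells that proliferate in serum and can fuse into muscle fibres. The WT group (3 libraries) was wild-type C2C12 cells, and the MSTN-KO group (3 libraries) was C2C12 cells in which exon 3 of the myostatin gene had been cut with CRISPR/Cas9, from the line that the study calls C11. The GEO strain entry reads C11 for all 6 libraries, the WT ones included, while title and genotype entries separate the groups. The tables hold no myostatin value, so the genotype of each library rests on its title and genotype entry, and so does the direction of each difference below. Whether the titles of the groups, and the genotype entries with them, were exchanged could not be settled from the tables and labels. The group names below are those of the titles. With exchanged titles each difference between the groups would keep its size and error and turn its sign.

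A miRNA is cut from a hairpin RNA by Drosha and then Dicer, which leaves a duplex of the 5p and the 3p arm. One arm, the guide, is kept by an Argonaute protein and pairs through its seed, bases 2 to 8, with messenger RNAs that are then repressed, while the other arm is mostly degraded. The miR-139 hairpin lies inside Pde2a, the gene of a phosphodiesterase that breaks down cyclic AMP and cyclic GMP. miR-139-5p is known from cancer studies as a miRNA with low levels in many tumours, and Igf1r, a growth factor receptor gene, is among its reported targets. Myostatin is a secreted member of the TGF-β superfamily that restrains muscle growth.

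The sequences are shown because the 2 arms share a precursor but have different seeds, and because each arm can be assigned to this hairpin alone. They are the RefSeq entries on GRCm38. Capitals mark the seed in the mature arms and both mature arms in the hairpin.
mmu-miR-139-5p: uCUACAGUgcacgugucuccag
mmu-miR-139-3p: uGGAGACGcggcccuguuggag
Mir139 hairpin: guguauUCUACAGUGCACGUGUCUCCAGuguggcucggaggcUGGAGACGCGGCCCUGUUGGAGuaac

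The Mir139 hairpin spans 68 bases of chromosome 7 on the plus strand, chr7:101475376-101475443 on GRCm38. The 5p arm covers chr7:101475382-101475403 and the 3p arm chr7:101475418-101475439, 22 bases each. The hairpin was intronic in each of the 10 Pde2a transcripts of GENCODE M21 that span it, and the next exon began 5927 bases downstream. Pde2a itself runs from 101421691 to 101512827 on the same strand, and the protein-coding gene model Gm45837 also spans the hairpin. No other annotated miRNA gene lay within 405740 bases, so miR-139 is not part of a miRNA cluster in this annotation. Each arm occurred in 1 hairpin of the RefSeq table, and its seed in 1 of 1679 mature miRNA names, namely its own. Of the 49 listed miRNAs, 32 had a sequence in that table, and 0 of the others shared a seed with either arm. In the fold predicted by RNAfold (-35.6 kcal per mol), 19 of the 22 bases of the 5p arm paired with the 3p arm, 11 of them as G-C pairs. Both arms begin with U. Among the first 4 bases of the 5p arm 1 was in a G-C pair, against 2 of the first 4 bases of the 3p arm.

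The deposited values were taken as RPM, reads per 1000000 library reads, because all values of a library are whole multiples of 1 step. The article speaks of FPKM, but the sources used here do not state the unit of the tables themselves or which reads enter the total. Read numbers and percentages of a library are therefore inferred. Library totals, taken from that step, ran from 5502214 to 11823489 reads, and those of the WT and MSTN-KO libraries overlapped. The listed miRNAs held between 0.773% and 3.47% of a library and are a selection: all 49 separated the groups without overlap, and 100% of them passed an adjusted p-value under 0.05 (limma). Labelled as myoblasts, the cells were checked against a list of muscle miRNAs. Of its 15 names 9 were in the tables, and they summed to between 19012 and 32615 RPM per WT library against 6333 to 11092 RPM per MSTN-KO library. All 9 passed the test as lower in the MSTN-KO libraries, but only 2 to 4 of them did so after the libraries were rescaled on the listed miRNAs. Of the 9, only miR-133a-5p reached 0 in any library. None of 7 other names, chosen to mark neuronal, blood, liver or endothelial cells, was in the tables. In such a selection a name can be missing whatever its level in the cells, so these absences do not bear on cell identity. The same holds for the muscle names that were not listed. The tables do hold miR-9-3p and miR-153-3p, of hairpins known from neurons, which were picked out after their values were seen. miR-9-3p had 3.85 to 4.37 RPM in the WT libraries and 10.4 to 11.8 RPM in the MSTN-KO libraries, and miR-153-3p had 4.93 to 8.03 RPM and 1.64 to 4.09 RPM. The part of the muscle miRNAs or of these neuronal miRNAs in the result for miR-139 was not tested. Fewer cells of a kind and less RNA per cell cannot be told apart in such bulk libraries.

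To see whether miR-139 differed between the WT and MSTN-KO libraries, each arm was compared between the groups. The MSTN-KO cells came from a single edited line, so loss of myostatin and other differences of that line cannot be told apart. Both arms were higher in the libraries titled MSTN-KO, by 4.52 times for the 5p arm and 4.40 times for the 3p arm in the ratio of group means, and the 5p arm held most of the reads in each library. mmu-miR-139-5p, the abundant arm, had 76.9, 107 and 84.2 RPM in WT replicates 1, 2 and 3. In MSTN-KO replicates 1, 2 and 3 it had 384, 421 and 408 RPM. The groups did not overlap, and the lowest MSTN-KO library was 3.58 times the highest WT library. Group means were 89.5 ± 15.9 RPM for WT and 405 ± 18.6 RPM for MSTN-KO (SD, n = 3). The log2 fold change of mmu-miR-139-5p was 2.18 ± 0.20 (SE, 95% interval from 1.73 to 2.63, limma on log2(RPM + 1), Benjamini-Hochberg adjusted p = 1.08e-05).

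mmu-miR-139-3p, the minor arm, had 2.77, 3.64 and 4.48 RPM in WT replicates 1, 2 and 3. It had 13.6, 18.2 and 16.1 RPM in MSTN-KO replicates 1, 2 and 3. Here too the groups did not overlap, and the lowest MSTN-KO library was 3.04 times the highest WT library. Group means were 3.63 ± 0.854 RPM for WT and 15.98 ± 2.30 RPM for MSTN-KO (SD, n = 3), with a log2 fold change of 1.88 ± 0.22 (SE, 95% interval from 1.39 to 2.37, limma adjusted p = 5.55e-05). On this scale the added 1 RPM lowers the change of an arm with few reads. Without a pseudocount, over the 43 miRNAs above 0 in each library, the log2 fold changes were 2.15 ± 0.25 for the 3p arm and 2.19 ± 0.21 for the 5p arm (SE, limma adjusted p = 0.000215 and 0.000104). With a pseudocount of 10 RPM that of the 3p arm was 0.93, which is under the fold cut-off of 1 used in the study's methods (limma adjusted p = 0.000167).

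**Figure D1:**
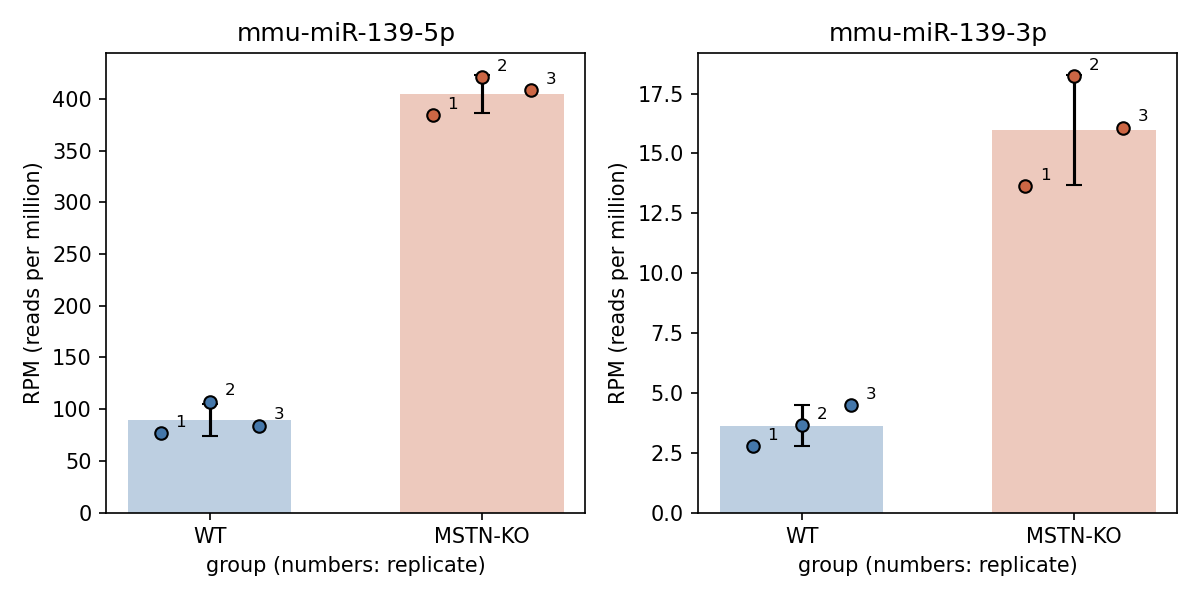
RPM of mmu-miR-139-5p (left) and mmu-miR-139-3p (right) in each library, as points numbered by replicate, with the group mean as a bar and the SD as an error bar (n = 3). The MSTN-KO libraries lie from 384 to 421 RPM for 5p and from 13.6 to 18.2 RPM for 3p, above the WT libraries on separate axes that start at 0.

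Both members were thus among the miRNAs that were higher in the libraries titled MSTN-KO. The share of such miRNAs in the whole table was 28.6% (14 of 49), whether counted by an adjusted p-value under 0.05 (limma), by a log2 fold change above 1 together with an unadjusted p-value under 0.05, or by groups without overlap. Against this background the members' count says little, and the size of their change is the more informative value. By log2 fold change on the log2(RPM + 1) scale, mmu-miR-139-5p had rank 1 of 49 and mmu-miR-139-3p rank 3. The median over all 49 was -1.07 and that over the 12 other higher miRNAs was 1.27. With exchanged titles the arms of miR-139 would be rank 49 and rank 47, at -2.18 and -1.88, among 14 lower and 35 higher miRNAs. The miRNAs next to them were miR-344b-3p at rank 2 (1.93 ± 0.20) and miR-193b-3p at rank 4 (1.82 ± 0.27), the second of which is known for a role in brown fat formation. The 95% intervals of these 4 fold changes overlapped, and differences among the 4 were not tested.

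**Figure D2:**
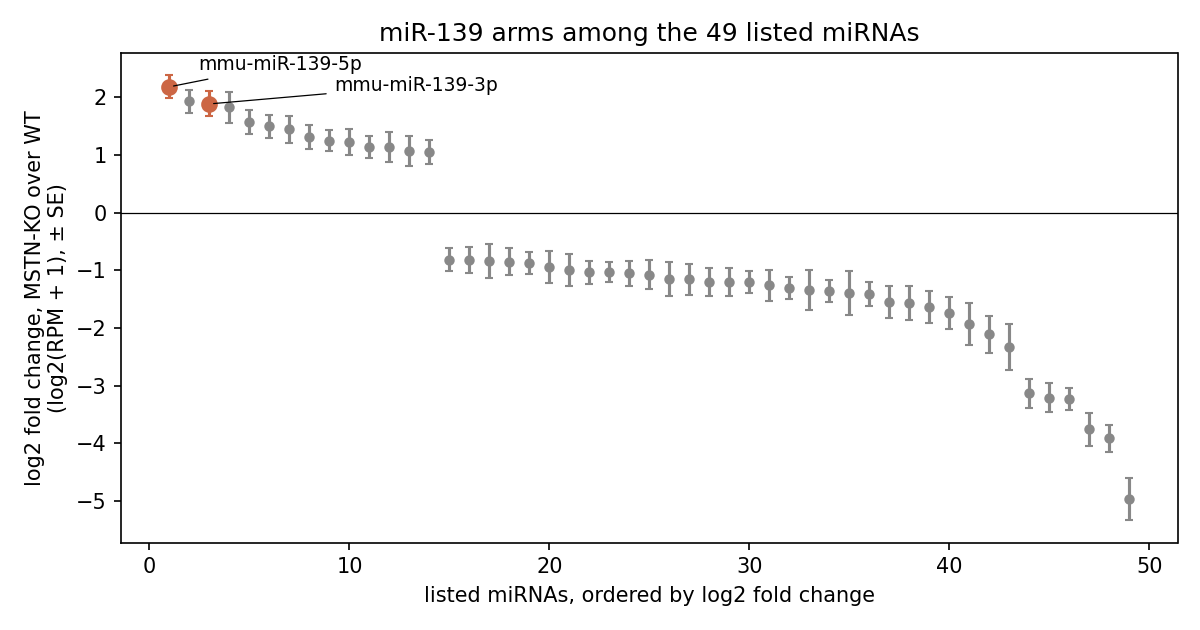
Log2 fold change on the log2(RPM + 1) scale, MSTN-KO over WT, of the 49 listed miRNAs in descending order, each with its limma standard error as a bar. mmu-miR-139-5p stands first at 2.18 and mmu-miR-139-3p at rank 3 with 1.88, and both belong to the 14 miRNAs above 0.

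Rescaling the libraries on the listed miRNAs made both changes larger, from 2.88 to 3.61 for the 5p arm and from 2.49 to 3.13 for the 3p arm over 4 rescalings. This follows from the scaling itself, since 35 of the 49 listed miRNAs were lower in RPM in the MSTN-KO libraries, and the median of all 49 moved up by 0.62 to 1.23. The split of calls went from 14 higher and 35 lower to 14 higher and between 10 and 21 lower (limma, adjusted p-value under 0.05), so the miRNAs listed as lower depend on the scaling. Relative to the library totals the 5p arm took 0.00769% in WT replicate 1, its lowest library, with a 95% Wilson interval of 0.00705% to 0.00840%. In MSTN-KO replicate 2, its highest, it took 0.0421% (0.0408% to 0.0434%).

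The position of miR-139 in the order of levels changed with its level. Mature miRNAs are of nearly equal length, so RPM values of different miRNAs were set side by side without a length correction. Whether different miRNAs, or the arms of a hairpin, were recovered equally well in these libraries was not tested. mmu-miR-139-5p had rank 9, 9 and 11 of the 49 listed miRNAs in WT replicates 1, 2 and 3 and rank 2 in all 3 MSTN-KO libraries. In the order of WT means it stood at rank 10, between miR-335-3p (98.4 ± 11.0 RPM) and miR-143-5p (72.7 ± 18.5 RPM), and its libraries overlapped with those of both. In the MSTN-KO group it stood between miR-206-3p, the muscle miRNA that dominates the tables at 8479 ± 2312 RPM, and miR-181d-5p at 373 ± 16.1 RPM (SD, n = 3). Its values did not overlap with either, although the highest value of miR-181d-5p, 383.7 RPM, was just under its own lowest value of 384.4 RPM. Leaving out miR-206-3p, the share of mmu-miR-139-5p in what remained of the listed RPM was 3.15% ± 0.19 for WT and 23.4% ± 0.78 for MSTN-KO (SD, n = 3).

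mmu-miR-139-3p had rank 40, 40 and 37 in WT replicates 1, 2 and 3 and rank 17, 16 and 16 in MSTN-KO replicates 1, 2 and 3. Its WT values overlapped with those of its neighbours miR-9-3p (4.07 ± 0.270 RPM) and miR-669a-5p (3.59 ± 0.490 RPM). In the MSTN-KO group it overlapped with miR-669c-5p below it (14.1 ± 1.06 RPM) but not with miR-193b-3p above it (23.7 ± 3.98 RPM, SD, n = 3).

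In absolute terms the 5p arm was 315 RPM higher in the libraries titled MSTN-KO, the largest difference of the 14 higher miRNAs and 50.3% of their summed difference of 626 RPM. With exchanged titles it would be the largest loss among 14 lower miRNAs, with the same share. miR-143-5p, from a hairpin known for smooth muscle expression, followed with 123 RPM (19.6%). The 3p arm was 12.3 RPM higher, or 1.97%. These shares describe a list on which all values already lie on one side.

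The spread between libraries was small beside these differences. The coefficient of variation of mmu-miR-139-5p was 17.8% among WT libraries and 4.60% among MSTN-KO libraries, the latter at rank 2 of 49 from the lowest. Its values rest on 499 to 995 reads in the WT libraries and on 2115 to 4020 reads in the MSTN-KO libraries, for which counting alone gives 3.17% to 4.48% and 1.58% to 2.17%. For mmu-miR-139-3p the coefficients were 23.5% (WT) and 14.4% (MSTN-KO), and counting alone gives 13.7% to 23.6% (18, 25 and 53 reads in WT replicates 1, 2 and 3) and 7.58% to 11.5% (75, 174 and 140 reads in MSTN-KO replicates 1, 2 and 3). The limit of 3 reads corresponds to at most 0.545 RPM, and both arms were above it in all 6 libraries.

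Next, the output of the hairpin and the choice between its arms were separated. The sum of both arms was 79.7, 111 and 88.6 RPM in WT replicates 1, 2 and 3 and 398, 439 and 424 RPM in MSTN-KO replicates 1, 2 and 3, without overlap. Mean sums were 93.1 ± 16.1 RPM for WT and 421 ± 20.9 RPM for MSTN-KO (SD, n = 3), with a difference of 2.19 ± 0.15 (SE) between the means of the log2 sums. An exact two-sided permutation test gave p = 0.1, the smallest value that 3 against 3 libraries allow. The ratio of 5p to 3p was 27.7, 29.5 and 18.8 in WT replicates 1, 2 and 3 and 28.2, 23.1 and 25.4 in MSTN-KO replicates 1, 2 and 3. The groups overlapped, and WT replicate 3 had the lowest ratio. Mean ratios were 25.3 ± 5.74 for WT and 25.6 ± 2.55 for MSTN-KO (SD, n = 3). The difference in log2 ratio was 0.036 ± 0.22 (SE, exact two-sided permutation test, p = 0.9).

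The mean sum of the arms thus differed by 4.52 times between the groups, while no shift between its arms was detectable at this depth. A limma fit on the log2 arm ratios of the 6 hairpins with both arms above 0 in each library gave a 95% interval of -0.53 to 0.61 for this difference, so shifts within that range could not be told from none. The sign of the difference turned when WT replicate 3 (-0.17) or MSTN-KO replicate 1 (-0.037) was left out.

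The same can be read from the share of 3p among the reads of both arms. It was 3.48%, 3.28% and 5.06% in WT replicates 1, 2 and 3, and 3.42%, 4.15% and 3.79% in MSTN-KO replicates 1, 2 and 3. The 95% Wilson intervals of all 6 libraries had the range from 3.89% to 4.27% in common. All intervals and read limits given here cover counting error only, because PCR copies of 1 molecule cannot be recognised without molecular identifiers. The WT libraries had 2327 reads of both arms in all and the MSTN-KO libraries 10078, so the share was known less precisely in the WT group.

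**Figure D3:**
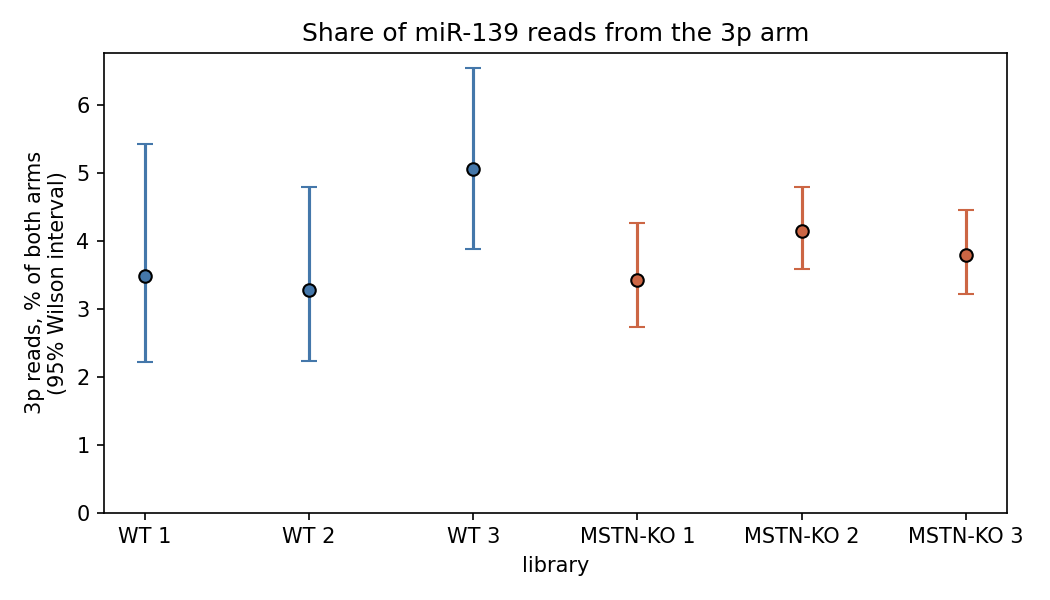
Reads of mmu-miR-139-3p as a percent of the reads of both miR-139 arms in each library, with 95% Wilson intervals as bars. The 3 WT and 3 MSTN-KO libraries lie between 3.28% and 5.06%, and all intervals overlap.

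Of the listed miRNAs, 10 hairpins had both arms in the tables, which allows miR-139 to be set beside 9 others. Both arms were higher in the MSTN-KO group for 2 hairpins, miR-139 and miR-193b, and both were lower for the other 8. After the 4 rescalings both arms were above 0 for 2 or 3 hairpins and below 0 for 4 to 8. The 5p arm was the larger one in each library for miR-139, miR-130b and miR-486a, the 3p arm for 6 hairpins, and the larger arm varied for miR-301b. Of the 9 others, 4 had an arm at 0 in some library and give no ratio there. Over the other 5 the difference in log2 ratio of 5p to 3p, MSTN-KO minus WT, ran from -1.56 ± 0.34 for miR-133b to 0.36 ± 0.16 for miR-206 (SE, n = 3), and 1 of them, miR-486a (-0.027 ± 0.13), had a smaller difference than miR-139. This order depends on the pseudocount. With 1 RPM added to each arm, miR-139 stood at 0.30 ± 0.23 (SE, limma). Of the 10 hairpins only miR-335 (0.099 ± 0.26) and miR-486a (-0.080 ± 0.20) then had a smaller difference. miR-139 had at least 517 reads of both arms per library, against 62 for miR-335 and 133 for miR-148a, so arm ratios of these hairpins are less precise. The value of miR-133b also rests on a scarce arm, with 0.727 RPM of 5p in MSTN-KO replicate 1.

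**Figure D4:**
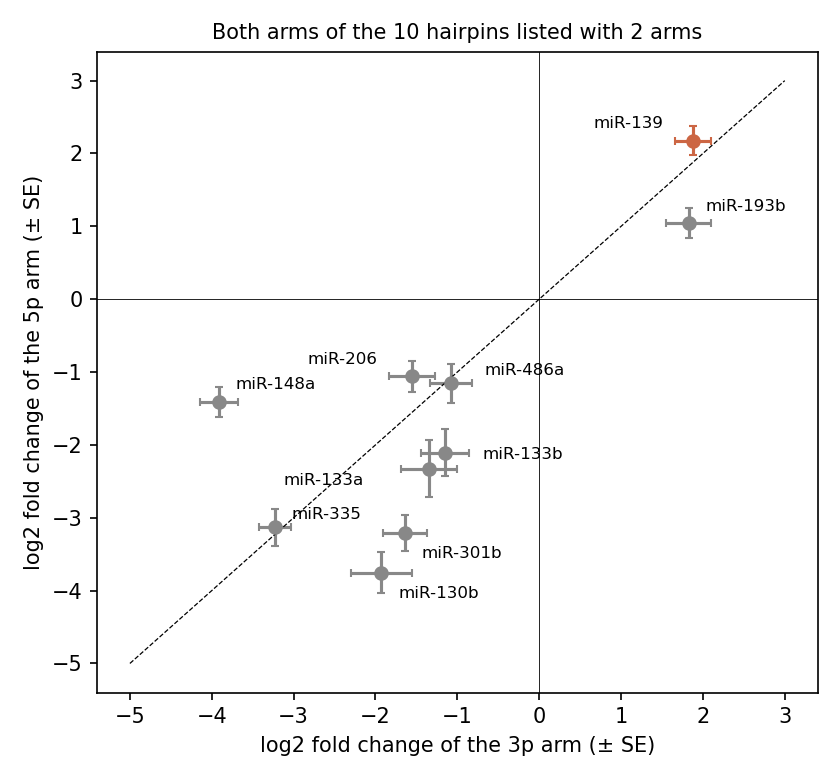
Log2 fold change (MSTN-KO over WT, log2(RPM + 1) scale) of the 5p arm against that of the 3p arm for the 10 hairpins with both arms listed, with limma standard errors as bars and the line of equal change dashed. miR-139 (3p at 1.88, 5p at 2.18) lies in the upper right with miR-193b, and the other 8 hairpins lie in the lower left on this RPM scale, against 4 to 8 hairpins there after rescaling on the listed miRNAs.

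The listed miRNAs whose pattern was most like that of miR-139 were then sought by the Pearson correlation of log2(RPM + 1) over the 6 libraries. All belonged to the 14 higher miRNAs, and with 3 libraries at each of 2 levels such values are set mainly by the difference between the groups. For mmu-miR-139-5p they were miR-9-3p (r = 0.997), miR-344b-3p (0.994), miR-455-3p (0.983), miR-193b-5p (0.983) and mmu-miR-139-3p (0.982). For mmu-miR-139-3p they were miR-143-5p (0.991), miR-344b-3p (0.987), miR-9-3p (0.987), mmu-miR-139-5p (0.982) and miR-10a-3p (0.968). The other arm of the hairpin thus ranked 5 and 4 among 48 candidates. The sequences of the miRNAs nearest in fold change or pattern are given to show that their seeds, in capitals, are not those of miR-139.
mmu-miR-344b-3p: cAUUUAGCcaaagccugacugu
mmu-miR-193b-3p: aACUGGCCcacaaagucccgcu
mmu-miR-9-3p: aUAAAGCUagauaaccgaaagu

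Finally, miR-139 was set beside other listed miRNAs that share its intronic position within a protein-coding gene of the same strand. A position was found for 32 of the 49 miRNAs, and 17 of these were intronic, the 2 arms of miR-139 among them. The listed miR-467, miR-669 and miR-486a names were among those without a position, so the intronic set may be incomplete. All of these names were lower in RPM in the MSTN-KO group. Of the 15 others 3 passed the test as higher in the MSTN-KO group and 12 as lower (limma, adjusted p-value under 0.05), with a median log2 fold change of -1.03 against -1.07 over all 49 listed miRNAs. The 4 rescalings left 3 higher and 5 to 7 lower. The 3 that were higher were miR-33-5p (intron of Srebf2, a gene of sterol synthesis control), miR-455-3p (intron of Col27a1, a collagen gene) and miR-3105-3p (intron of Shank2). The Pde2a transcript was not analysed here, so whether it changed with the hairpin was not tested.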

How the data were processed

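Small RNA libraries, 3 WT and 3 MSTN-KO, were analysed from tables deposited by the authors. The deposited values, 1 per miRNA and library, were taken as RPM from their steps, although the article speaks of FPKM and the reads in the total are not stated. All values above 0 were whole multiples, within 0.01, of a single step per library, whose inverse was taken as the library total and used to obtain reads. The submitters' processing notes name Bowtie 0.12.2 and mm8, and the counting tool and miRNA catalogue are not given in the sources used here. Whether replicates were separate cultures is not stated. The limma p-values set each difference against the spread between these libraries, which may be less than that between separate cultures. No library was a duplicate of another, as reads of libraries within a group gave a chi-square of at least 2676 (48 degrees of freedom).

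Values were fitted as log2(RPM + 1) with limma 3.58.1 in R 4.3.3 (two-sided, Benjamini-Hochberg over the 49 miRNAs, at least 1 RPM in at least 1 library, no covariate). The fit was checked on simulated data in which most miRNAs were unchanged. The check therefore does not cover a list selected for change, such as the one used here. Arm ratios and sums were compared with exact permutation tests in scipy 1.17.1, and the hairpin was folded with RNAfold 2.7.2. The files hold no coordinates. Positions come from GENCODE M21 and RefSeq, both on GRCm38. The members, lists and tests were chosen with earlier results of these data known. Other miRNAs were named if next to a member in level or fold change, among the 5 most alike, listed with both arms of a hairpin, of the same seed, or in the muscle or intronic lists. Alternatives were other pseudocounts, filters and rescalings, a variance trend, a replicate block and leaving out each library. A count model was not run, because each library lists too few low values to establish firmly that reads were recovered. The read numbers, counting intervals and chi-square values given here rest on the same inference.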

Additional observations from a re-analysis of the deposited data

How the results depend on the processing

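The fold changes of both arms and the sum of the arms kept their direction in each alternative run, and the adjusted p-values of the arms stayed under 0.05 (17 alternatives for 5p, 16 for 3p, limma). The list is a selection of which all 49 miRNAs passed in the main fit. These p-values are therefore not independent support for a difference. The kept direction says little as well. Because the groups did not overlap, other pseudocounts, filters or leaving out a library could not turn it. The variance trend and the replicate block leave the fold change as it is, so only the rescalings could have turned the direction. Values ran from 2.07 to 3.61 for 5p, from 0.93 to 3.13 for 3p and from 2.08 to 3.62 for the log2 sum. Leaving out 1 library at a time gave 2.08 to 2.31, 1.74 to 2.01 and 2.08 to 2.32. The 5p arm had rank 1 by fold change in 16 of 17 alternatives and rank 3 with a pseudocount of 0.1 RPM. The filters, the variance trend and the replicate block left the fold changes unchanged and could not lower this rank. By the ratio of group means, miR-193b-5p (8.02) and miR-3105-3p (5.72) stood above the 5p arm (4.52). Both had 0 RPM in WT replicate 1, so the fit without a pseudocount left them out. The 3p arm ran from rank 2 to rank 7, and the filter on a mean of 10 RPM removed it. The difference in log2 arm ratio ran from -0.17 to 0.16 when libraries were left out, reversing without WT replicate 3 (-0.17) and without MSTN-KO replicate 1 (-0.037). It was 0.30 with a pseudocount of 1 RPM, which lowers the ratio where 3p is scarce. With a replicate block (the number in the title), the values were 2.18 for 5p and 1.88 for 3p (limma adjusted p = 0.000238 and 0.000397), and for the arm ratio and the sum 0.036 and 2.19 (exact sign-flip test, p = 0.75 and 0.25, the latter the smallest that 3 pairs allow). Deviations of same-numbered libraries correlated by 0.0047 to 0.22, so the numbers were not taken as pairs, and the block changed no call. Over all 49 miRNAs the counts were 14 higher and 35 lower, and the 4 rescalings gave 14 higher and 10 to 21 lower. A mean of at least 10 RPM left 22 miRNAs, 8 higher and 14 lower, and with a pseudocount of 10 RPM 5 rather than 14 passed the fold cut-off as higher. The fits without a pseudocount were added after seeing the data. The depth limits the 3p arm most, at 18 to 53 reads per WT library.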
